A study of Saccharomyces cerevisiae with 24 samples.

Results

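The comparison described here sets budding yeast (Saccharomyces cerevisiae) that lacks the DOT4 gene against yeast with an unaltered DOT4 gene. It was assembled from 12 of the 24 arrays of the study: the 6 arrays of the dot4 null strain and the 6 arrays of the untagged DOT4 strain. The arrays were chosen by the strain named in their labels, not by any measured value. The dot4 null strain is UCC6435 and the untagged DOT4 strain is UCC6432. Neither was hybridised directly against the other. Each was hybridised in 3 sets against UCC6408, a strain whose DOT4 gene carries a 6Myc epitope tag (DOT4-6Myc), and each set held 1 array with the compared strain labelled with Cy5 and 1 with the dyes exchanged. The dot4-1 and dot4-5 allele strains of the other 12 arrays entered only the filter on missing values and the estimate of the spread between sets. All of these cells were grown in YEPD, a rich glucose medium, and total RNA was hybridised. The sources used here do not give how the deletion was made or what marker genes the strains carry, and they do not say whether the 3 sets came from separate cultures, so the p-values reflect only how far these sets varied, and that variation may be technical.

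DOT4, named UBP10 in the annotation (YNL186W), encodes a ubiquitin protease that removes ubiquitin from histone H2B. Its name stands for disruptor of telomeric silencing, because altered dosage of the gene weakens the repression of genes placed next to telomeres, the ends of chromosomes. Repression there depends on the Sir proteins, which spread along chromatin from the telomere and bind histones that lack certain ubiquitin-dependent methyl marks.

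All values are log2 ratios over DOT4-6Myc, averaged over the 2 dye orders of a set after each array was centred on its median. A difference is the mean of the dot4 null sets minus the mean of the untagged DOT4 sets, so the tagged strain drops out of it. Limma's moderated test was used with Benjamini-Hochberg adjustment over all 6195 genes tested, and a gene passed the threshold at an adjusted p under 0.05. The sign of the ratios is not settled by the labels. Read as the labels are written, they would place UBP10 above the tagged strain in the null, so every array was turned. UBP10 makes this direction likely for the null arrays. In the turned untagged DOT4 arrays UBP10 lay between -0.29 and -0.03, so it says little about their direction. The sign of the UBP10 difference is therefore part of how the direction was set and is no result. Under another reading, in which only the null arrays had the 2 names the wrong way round, the untagged DOT4 values would change sign. Values under that second reading are given beside each group of genes. Of the 117 genes named here that passed, 70 passed in the same direction under it, 11 passed in the opposite direction and 36 did not pass.

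UBP10 was lower in every dot4 null set, at log2 ratios of -4.48, -4.48 and -5.12 in sets 1 to 3, against -0.14, -0.11 and -0.27 in the untagged DOT4 sets. The difference was -4.52 ± 0.13 on the log2 scale (SE), a 22.9-fold change, and it was the largest in absolute size of all genes tested. The untagged gene gave a signal close to that of the tagged one. The annotated neighbours of UBP10 both passed, as did 54.9% of all genes. MRPL19, which encodes a protein of the mitochondrial large ribosomal subunit, had ratios of 0.39, 0.10 and 0.15 in the dot4 null sets, against -1.08, -1.15 and -1.07 in the untagged DOT4 sets (difference 1.31 ± 0.08 SE, limma adjusted p = 1.95e-07). The larger departure from the tagged strain in this gene lay in the untagged DOT4 sets, not in the null sets. SWT21, a gene linked to pre-mRNA splicing on the other side, had 0.40, 0.27 and 0.51 in the dot4 null sets, against -0.13, -0.11 and -0.05 in the untagged DOT4 sets (difference 0.49 ± 0.06 SE, limma adjusted p = 2.8e-05). Its null sets 1 and 2 depended on the dye order, at 0.74 and 0.47 with the null in Cy5 and 0.06 in both with Cy3. Null set 3 read 0.51 and 0.50.

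Across the genome 3401 of 6195 genes passed the threshold, which is 54.9%. Of all genes tested, 27.7% were higher and 27.2% were lower in dot4 null, and these shares are the background for every count below. Most of the differences were small: the median absolute difference among the genes that passed was 0.36, and 1330 of them differed by under 0.3 on the log2 scale. A difference of at least 2-fold was passed by 168 genes (2.71%), 71 of them higher and 97 lower in dot4 null. The 3 null sets lay wholly above or below the 3 untagged sets for 57.7% of genes. The number of arrays limited the precision: the standard error of a difference had a median of 0.07, and the 95% interval a median half-width of 0.15. Set 1 of the null stood apart from the other null sets, which correlated with each other at 0.95 over all genes, the lowest pair at 0.75. Without it 3772 genes passed. The share of higher genes among those past the threshold was 50.5% with centred arrays and 69.6% without centring. Without centring the median of all genes lay 0.10 above 0.

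The 12 genes with the largest positive differences were led by HSP30 and ZRT1. HSP30, a plasma membrane protein induced by heat and stress, had ratios of 0.39, 0.34 and 0.08 in the dot4 null sets, against -1.75, -2.04 and -2.04 in the untagged DOT4 sets. The null was thus close to the tagged strain in HSP30, and the untagged strain was far below it. ZRT1, the high-affinity zinc importer, had 0.60, 1.09 and 0.75 in the dot4 null sets, against -0.99, -1.08 and -1.17 in the untagged DOT4 sets. ADE2, an enzyme of purine synthesis often used as a marker, had 0.96, 0.78 and 1.05 in the null, against -0.35, -0.76 and -0.72 in untagged DOT4. For ZRT1 and ADE2 the tagged strain lay between the other strains in all 3 sets. SER3, which begins serine synthesis, was 1.44 ± 0.06 (SE) higher in the null, and DIA1, a gene of invasive growth, 1.61 ± 0.09. DHR2, a nucleolar RNA helicase needed for the small ribosomal subunit, differed by 1.40 ± 0.09. ECM1, an export factor of the large subunit, differed by 1.35 ± 0.09, and DIM1, which methylates ribosomal RNA, by 1.26 ± 0.10. CMK2, a calmodulin-dependent protein kinase, differed by 1.32 ± 0.10. YOL014W and TDA6, for which no role is given here, complete the 12 with MRPL19, at 1.75 ± 0.17 and 1.31 ± 0.11. The 12 genes had limma adjusted p-values between 1.43e-08 and 3.62e-06. Under the second reading HSP30 (-1.67), CMK2 (-0.90), MRPL19 (-0.88) and DIA1 (-0.56) were lower in the null. ZRT1 (-0.26), SER3 (0.13), YOL014W (-0.38) and TDA6 (0.19) did not pass, and ADE2 (0.32), DHR2 (0.37), ECM1 (0.42) and DIM1 (0.41) were higher by smaller differences.

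**Figure D1:**
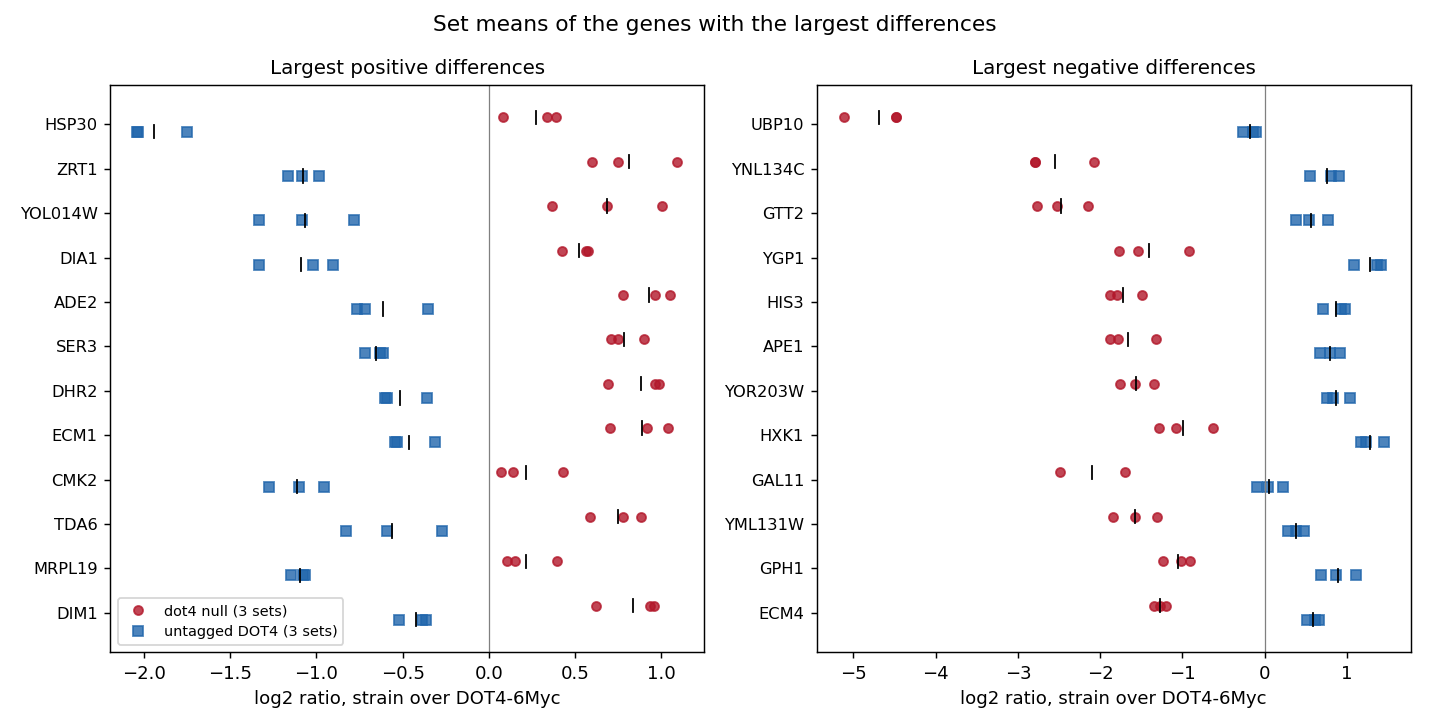
Log2 ratios over DOT4-6Myc (horizontal axes) of the 12 genes with the largest positive (left) and the 12 with the largest negative differences (right), with 1 circle per dot4 null set, 1 square per untagged DOT4 set and a black tick at each strain's mean. HSP30, CMK2 and MRPL19 sit near 0 in the null and near -1 or below in untagged DOT4, while UBP10 and GAL11 sit near 0 in untagged DOT4.

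The 12 genes with the largest negative differences were led, after UBP10, by YNL134C and GTT2. YNL134C, a reductase of the alcohol dehydrogenase family, had ratios of -2.08, -2.80 and -2.79 in the dot4 null sets, against 0.91, 0.55 and 0.80 in the untagged DOT4 sets. GTT2, a glutathione S-transferase, had -2.15, -2.53 and -2.77 in the null, against 0.77, 0.38 and 0.53 in untagged DOT4. YGP1, a secreted glycoprotein made on nutrient limitation, had -0.93, -1.77 and -1.54 in the null, against 1.36, 1.08 and 1.41 in untagged DOT4. In all of these genes the untagged strain was above the tagged strain and the null below it. YML131W, another reductase-like gene, differed by -1.96 ± 0.11 (SE), and ECM4, a glutathione transferase, by -1.86 ± 0.10. APE1, a vacuolar aminopeptidase, differed by -2.46 ± 0.15 and HXK1, a hexokinase, by -2.28 ± 0.13. GPH1, the glycogen phosphorylase, differed by -1.95 ± 0.13. GAL11, a subunit of the Mediator complex, was measured in 2 null sets as set means, at -1.69 and -2.49, against -0.10, 0.04 and 0.22 in the untagged DOT4 sets (difference -2.15 ± 0.22 SE, limma adjusted p = 1.15e-05). The set left out of that mean lacked a value in 1 dye order, and its other array read -0.73. Null set 1 was split between the dye orders, at -2.585 with the null in Cy5 and -0.802 in Cy3. Null set 3 read -2.671 and -2.317. GAL11 was near the tagged strain in untagged DOT4, as UBP10 was. In the second reading GAL11 (-2.04), GTT2 (-1.92), YNL134C (-1.80), YML131W (-1.20), APE1 (-0.87) and ECM4 (-0.68) were lower, and YGP1 (-0.13), HXK1 (0.28) and GPH1 (-0.17) did not pass.

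Genes used as selectable markers differed in both directions. HIS3, an enzyme of histidine synthesis, had -1.49, -1.80 and -1.88 in the dot4 null sets, against 0.97, 0.93 and 0.71 in the untagged DOT4 sets (difference -2.59 ± 0.10 SE, limma adjusted p = 1.43e-08). YOR203W, the reading frame with the next locus number, which the annotation used here does not list, was also among the lowest at -2.43 ± 0.10. LEU2, an enzyme of leucine synthesis, had -0.75, -0.98 and -1.06 in the null, against 0.29, 0.18 and 0.19 in untagged DOT4. URA3, an enzyme of uracil synthesis, had 0.72, 0.35 and 0.73 in the null, against -0.37, 0.78 and 1.06 in untagged DOT4, and its difference of 0.11 did not pass (95% interval -0.50 to 0.72). The untagged sets disagreed with each other in URA3: set 1 lay below all null sets, and sets 2 and 3 lay above all of them. The 0.35 of null set 2 joined dye orders of opposite sign, at 1.17 with the null in Cy5 and -0.466 in Cy3. Without untagged DOT4 set 1 the URA3 difference was -0.32. Of the 10 marker genes listed, 3 were higher (30%) and 2 were lower (20%) in dot4 null, near the 27.7% and 27.2% of all genes. With names read the second way, 2 of the 10 marker genes were higher and 5 lower. HIS3 (-0.85), YOR203W (-0.69) and LEU2 (-0.71) were lower in that reading and URA3 was higher at 1.09. A difference in what markers the strains carry and an effect of DOT4 on these genes cannot be told apart.

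Genes at the outermost ranks of the chromosomes were mostly higher in dot4 null. Among the 143 genes that rank 1 to 5 from a chromosome end, 81 were higher (56.6%) and 19 lower (13.3%), with a median difference of 0.25 and quartiles of -0.02 and 0.81. At ranks 6 to 10, 36 of 151 genes were higher and 37 lower, and the median was -0.02. Beyond rank 40, 1263 of 4471 genes were higher and 1198 lower, with a median of 0.003. The share of higher genes at ranks 6 to 10 was thus 23.8%, against 27.7% of all genes. The count of 81 ranged from 67 to 80 when 1 set was left out. On the second reading, 69 of the 143 were higher and 21 lower, with a median of 0.20. Subtelomeric gene families have copies at different chromosome ends that share sequence. Their probes can read each other's transcripts, so these genes are not independent. Without the listed members of the Y', PAU and COS families, 54 of the remaining 110 outermost genes were higher (49.1%) and 19 lower (17.3%), with a median of 0.22. These still include unnamed frames of the Y' elements, many of them higher, which may repeat the Y' signal. Several of these frames differed by 0.87 to 0.93, about as much as the listed Y' genes. The share of 49.1% may therefore still hold the Y' signal many times over. How far the excess of higher genes at the outermost ranks rests on them was not tested.

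**Figure D2:**
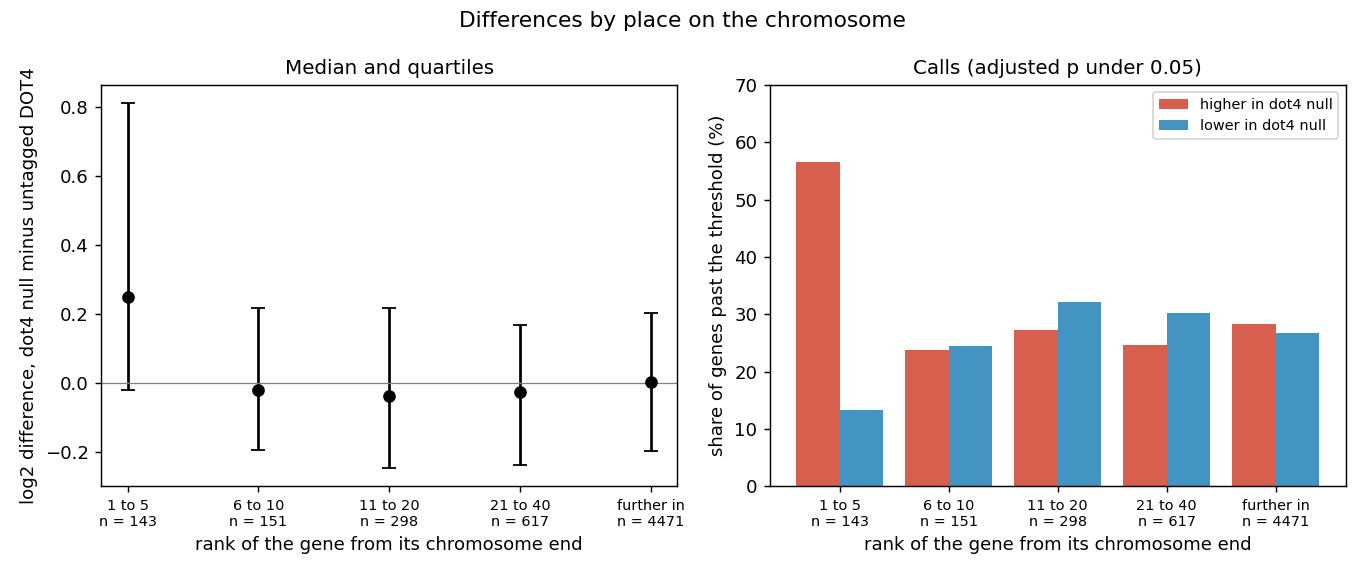
Differences (dot4 null minus untagged DOT4, log2) by rank of the gene from its chromosome end: medians with quartiles (left) and the share of genes past the threshold in each direction (right, %). The 5 outermost ranks have 56.6% higher and 13.3% lower genes, and the other ranks lie near 0 on the left axis.

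The helicase genes of the Y' elements, repeats that sit directly next to many telomeres, were higher in the null as a group. All 7 YRF1 genes on the arrays passed in that direction, with differences between 0.88 and 0.97 and a median of 0.91, against a median of -0.003 over all genes. YRF1-7 had ratios of 1.23, 0.93 and 0.95 in the dot4 null sets, against 0.16, -0.07 and 0.12 in the untagged DOT4 sets. These genes are near-identical copies, so their values are repeats of 1 signal rather than 7 measurements. The untagged sets lay near the tagged strain, so that the difference came almost wholly from the null arrays. By the second reading, of the strain names the median was 1.07, with 7 of 7 higher.

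The PAU, DAN and TIR genes encode small cell wall mannoproteins, many of them subtelomeric and normally induced without oxygen. Of 29, 22 were higher, 2 were lower and 5 did not pass, and the median difference was 0.98. PAU3 had 0.91, 0.91 and 0.88 in the dot4 null sets, against -0.33, -0.32 and -0.26 in the untagged DOT4 sets. PAU4 (1.19 ± 0.06 SE), PAU5 (1.19 ± 0.08) and PAU16 (1.18 ± 0.09) were almost the same, and PAU genes are close enough in sequence that their probes may share transcripts. The 2 lower members were DAN4 at -0.44 and TIR1 at -0.37, both named after their values were seen. Under the second reading 19 of the 29 were higher and 5 lower, with a median of 0.36. The COS genes, a further subtelomeric family of membrane proteins, were higher in 6 of 11, with a median of 0.20. That count was 1 without dot4 null set 1, 3 without set 2, and 2 or 3 without any 1 untagged DOT4 set. COS8, at 0.53 ± 0.08, was the highest. In the second reading no COS gene was higher and 1 was lower, and COS8 (0.20) did not pass. Of 9 subtelomeric hexose transporters, 4 were higher and 1 was lower, and the count of higher genes was 1 without untagged DOT4 set 2, and 2 without dot4 null set 2 or untagged DOT4 set 1. It was 4 under the second reading, with 2 lower.

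**Figure D3:**
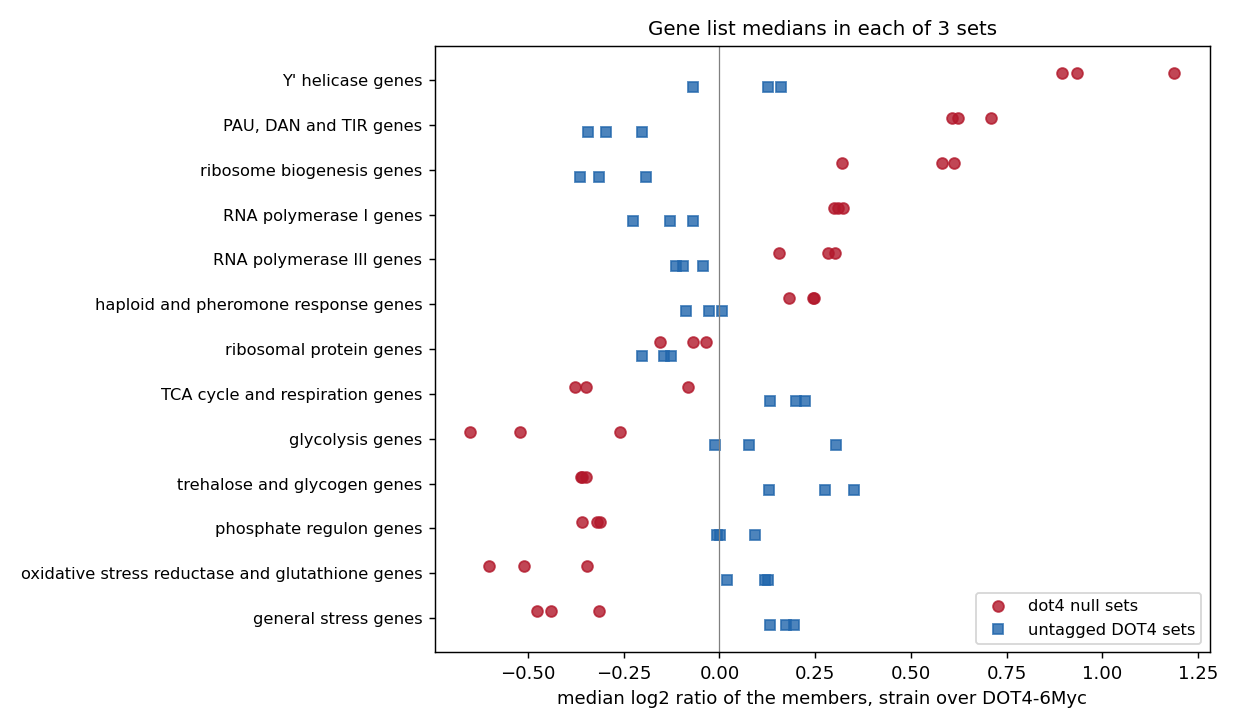
Median log2 ratio over DOT4-6Myc of the members of 13 gene groups, with 1 circle per dot4 null set and 1 square per untagged DOT4 set. The Y' medians are 0.89 to 1.19 in the null and near 0 in untagged DOT4; ribosome biogenesis, general stress and storage genes lie on opposite sides of 0 in the 2 strains.

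Most genes that carry out silencing did not pass. Of 27, 4 were higher (14.8%) and 1 was lower (3.7%), both below the 27.7% and 27.2% of all genes. RAP1, a telomere-binding protein that recruits the Sir complex and also activates ribosomal protein genes, had 0.63, 0.43 and 0.51 in the dot4 null sets, against -0.07, -0.08 and -0.08 in the untagged DOT4 sets (difference 0.60 ± 0.08 SE, limma adjusted p = 3.67e-05). ARD1, a subunit of an acetyltransferase that acts on silencing proteins, differed by 0.28 ± 0.05. HST3, a relative of SIR2, differed by 0.35 ± 0.14 (limma adjusted p = 0.0496), and that call was lost without dot4 null set 1 or 3 and without any 1 untagged DOT4 set. The Sir genes themselves did not pass, with differences of 0.08 for SIR2 (95% interval -0.04 to 0.20), 0.20 for SIR3 (-0.04 to 0.45) and -0.14 for SIR4 (-0.37 to 0.10). These 3 were named after their values were seen. SIR3 passed at 0.36 without dot4 null set 1, and SIR4 was 0.005 without that set and passed at -0.27 without dot4 null set 3. Without dot4 null set 1, 9 silencing genes were higher, and without centring 12 were. With names read the second way, 8 were higher and none was lower, with RAP1 at 0.45.

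Among the genes that place ubiquitin on H2B or methylate histone H3 downstream of it, 7 of 21 were higher and none was lower. The higher share of 33.3% lay near the 27.7% of all genes, while 27.2% of all genes were lower. BRE1, the ubiquitin ligase for H2B, had 0.11, 0.54 and 0.54 in the dot4 null sets, against -0.04, 0.03 and -0.08 in the untagged DOT4 sets. DOT1, an H3 methyltransferase found through the same silencing defect, had 0.19, 0.42 and 0.40 in the null, against -0.19, -0.01 and 0.11 in untagged DOT4. CDC73, of the PAF complex that assists the ligase, differed by 0.32 ± 0.05 (SE), and BRE2, of the COMPASS methyltransferase, by 0.30 ± 0.10. The DOT1 call was lost with the compared strain in Cy5 only (0.18), and the BRE2 call without dot4 null set 2 or 3 or untagged DOT4 set 1. The count of higher genes was 4 without untagged DOT4 set 3, and 6 under the second reading, where BRE2 (-0.03) did not pass. Of 20 genes for other ubiquitin proteases, 6 were higher (30%) and 7 lower (35%), against 27.7% and 27.2% of all genes. UBP1 was 0.52 ± 0.10 higher, and UBP15, UBP2 and OTU1 fell by 0.54, 0.54 and 0.52. The count of higher proteases was 2 or 3 without dot4 null set 2 or 3, or without untagged DOT4 set 1 or 3. On the second reading, 2 were higher and 5 lower, and UBP1 (0.25) and UBP15 (0.01) did not pass.

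The core histone genes split by histone type. Both genes for histone H4 and both for H3 were higher in the null, and both for H2B were lower. The H2A genes were lower by small amounts that depended on single sets. HHF1, for H4, had 0.59, 0.62 and 0.64 in the dot4 null sets, against 0.01, -0.01 and 0.01 in the untagged DOT4 sets (difference 0.61 ± 0.04 SE, limma adjusted p = 2.61e-07). HHF2 differed by 0.60, HHT1 by 0.42 and HHT2 by 0.38. HTB1, for H2B, had -0.17, -0.09 and -0.17 in the null, against 0.37, 0.25 and 0.41 in untagged DOT4 (difference -0.49 ± 0.06 SE, limma adjusted p = 1.69e-05). HTB2 differed by -0.50. HTA1 and HTA2, for H2A, fell by 0.17 and 0.15. The H3 and H4 differences came from the null arrays, with the untagged strain at the tagged strain's level, while the H2B ratios departed from 0 in both strains. HHO1, the linker histone, and HTZ1, the H2A variant of promoters, were lower by differences of -0.38 and -0.21. The pair of genes for each histone is nearly identical in coding sequence and was not told apart with certainty. Of the 11 histone genes, 6 were lower, and 3 were lower without dot4 null set 3, without untagged DOT4 set 1 or 3, or without centring. The calls lost were those of HTA1, HTA2 and HTZ1, and the HTA2 difference was 0.001 with the compared strain in Cy3 only. HHT1, HHT2, HHO1, HTZ1, HTA1 and HTA2 lie beyond the 4 largest of the group and were named after their values were seen. By the second reading, 7 of the 11 were higher and none was lower, with HTB1 at 0.20, HTB2 at 0.19 and HHF1 at 0.62.

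**Figure D4:**
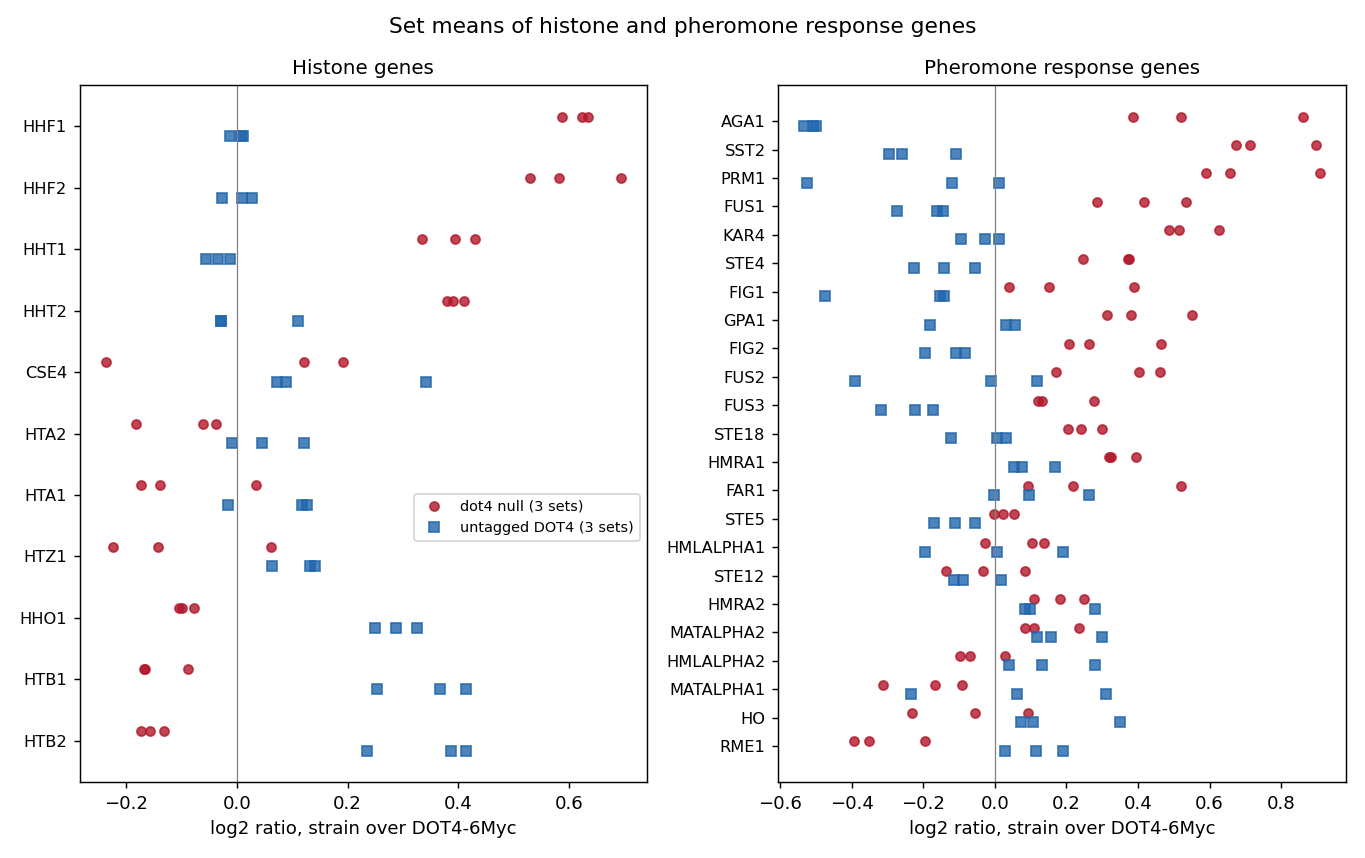
Log2 ratios over DOT4-6Myc of the 11 histone genes (left) and the 23 haploid and pheromone response genes (right), with 1 circle per dot4 null set and 1 square per untagged DOT4 set, ordered by difference on the right. The H4 and H3 genes lie to the right in the null only, and HTB1 and HTB2 lie to the right in untagged DOT4.

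Genes of mating and the pheromone response were mostly higher in the null. Of 23, 14 were higher and 2 lower, with a median difference of 0.28. The 23 include genes of the mating type locus MAT and of the silent mating loci HML and HMR. Of these, a gene at HMR was higher (0.25), another at HML was lower (-0.20) and the others did not pass. AGA1, the anchorage subunit of a mating agglutinin, had 0.86, 0.39 and 0.52 in the dot4 null sets, against -0.53, -0.50 and -0.51 in the untagged DOT4 sets. SST2, which dampens pheromone signalling, had 0.90, 0.67 and 0.71 in the null, against -0.11, -0.26 and -0.29 in untagged DOT4. FUS1, a cell fusion protein induced by pheromone, had 0.53, 0.42 and 0.29 in the null, against -0.27, -0.16 and -0.14 in untagged DOT4, and PRM1, for membrane fusion, differed by 0.93 ± 0.12 (SE). The strains' sets did not overlap in any of these 4 genes, nor in 57.7% of all genes. The 4 are those with the largest differences of the group. Of 7 genes expressed in cells of mating type a, 3 were higher. STE2, the receptor for alpha factor, was one, at 0.73, 0.19 and 0.23 in the null, against -0.06, -0.26 and -0.21 in untagged DOT4. The median of the 7 was 0.38 in set 1 of the null, above the 0.01 and 0.04 of null sets 2 and 3, against -0.06, -0.10 and -0.16 in untagged DOT4, and null set 1 was the highest null set in each of the 7 genes. STE6, the exporter of a factor, had 0.30, 0.17 and 0.19 in the null, against -0.07, -0.09 and -0.16 in untagged DOT4. Under the second reading 10 of the 23 mating and pheromone genes were higher and 1 lower, AGA1 (0.08) did not pass, and none of the 7 a-specific genes passed. The mating type of the strains is not given in the sources used here.

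Nearly all genes that build ribosomes were higher. Of 133 genes for ribosome assembly, 131 were higher, 1 was lower and 1 did not pass, and the median difference was 0.78. The members' median ratio was 0.32, 0.58 and 0.61 in the dot4 null sets, against -0.32, -0.19 and -0.36 in the untagged DOT4 sets. NSR1, a nucleolar protein of pre-rRNA processing, had 0.45, 0.73 and 0.71 in the null, against -0.55, -0.53 and -0.73 in untagged DOT4. KRR1, needed for the small subunit, had 0.47, 0.98 and 1.00 in the null, against -0.43, -0.24 and -0.52 in untagged DOT4. In both the tagged strain lay between the compared strains. FAF1, a further small subunit factor, differed by 1.22 ± 0.16 (SE), with null set 1 (0.29) well below null sets 2 and 3 (0.94 and 0.97). In the second reading 56 of the 133 were higher and 4 lower, with a median of 0.21, and NSR1 differed by 0.03.

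Genes of the polymerases that make ribosomal and transfer RNA were mostly higher too. Of 16 genes for RNA polymerase I and its initiation factors, 13 were higher and none was lower, with a median of 0.46. RRN3, the factor that brings polymerase I to the ribosomal DNA, had 1.18, 1.08 and 1.17 in the dot4 null sets, against -0.15, -0.05 and -0.12 in the untagged DOT4 sets (difference 1.25 ± 0.06 SE, limma adjusted p = 2.93e-08). RRN3 differed from the assembly genes in that the untagged strain was close to the tagged one. The polymerase I subunits RPA43, RPA49 and RPA34 differed by 1.01, 0.96 and 0.93. Of 22 polymerase III genes, 14 were higher and 1 was lower, with a median of 0.36, and RPC34 (0.83), RPC53 (0.81), RPC82 (0.73) and RPC11 (0.67), all subunits of the enzyme, had the largest differences. Of 50 genes for translation factors and tRNA synthetases, 28 were higher and none was lower, with TIF11 (0.73 ± 0.08 SE), an initiation factor, the highest. With names read the second way, the translation genes turned round, with 3 of 50 higher and 20 lower, though TIF11 was higher at 0.33. In that reading 8 of 16 polymerase I genes were higher and 1 lower, with RRN3 at 1.03, and 11 of 22 polymerase III genes were higher and 1 lower.

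The ribosomal protein genes themselves had a median difference near 0. Of 138, 49 were higher, 10 were lower and 79 did not pass, and the median was 0.08. RPL35A and RPL35B, near-identical genes of the large subunit, differed by 0.59 and 0.54. RPS22B, of the small subunit, was the largest lower one at -0.53 ± 0.08 (SE). The 10 lower genes became 18 without dot4 null set 1, 6 without null set 3 or untagged DOT4 set 1 or 3, and 2 without centring. Mitochondrial ribosomal proteins had 25 of 75 genes lower and 4 higher, with MRPL19 the highest, but without centring only 5 were lower. On the second reading, 91 of the 138 cytoplasmic ribosomal protein genes were lower and 2 higher. Of the mitochondrial ones 38 were then higher and 1 was lower, the opposite of the count above.

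Genes for breaking down sugar were lower in the null. Of 17 glycolysis genes, 15 were lower, none was higher and 2 did not pass, with a median of -0.64. PGK1, phosphoglycerate kinase, had -0.54, -0.84 and -1.03 in the dot4 null sets, against 0.13, 0.19 and 0.43 in the untagged DOT4 sets. PYK2, a minor pyruvate kinase, had -0.71, -0.76 and -0.86 in the null, against 0.42, 0.40 and 0.39 in untagged DOT4. TDH1, a glyceraldehyde-3-phosphate dehydrogenase, and ENO1, an enolase, differed by -1.10 ± 0.15 (SE) and -0.90 ± 0.12. Both have close copies in the genome, so their values may hold signal from those. Of 15 glucose transporters and hexose kinases, 6 were lower (40%) and 4 higher (26.7%), against 27.2% and 27.7% of all genes. GLK1, the glucokinase, fell by 1.70, and the near-identical transporter genes HXT6 and HXT7 by 1.20 and 1.09. By the second reading, 16 of 17 glycolysis genes were lower, with a median of -0.36, but 3 of the 15 transporters and kinases were lower and 1 higher. GLK1 was lower at -0.31, and HXT6 (0.05) and HXT7 (0.10) did not pass.

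Storage carbohydrate, respiration and general stress genes were lower as well. Of 20 trehalose and glycogen genes, 14 were lower and 1 was higher, with a median of -0.54. PGM2, the main phosphoglucomutase, had -1.29, -1.18 and -0.96 in the dot4 null sets, against 0.44, 0.39 and 0.69 in the untagged DOT4 sets. GLC3 (-1.26 ± 0.19 SE) and GDB1 (-1.20 ± 0.14) form and trim the branches of glycogen. Of 55 genes of the TCA cycle and respiratory chain, 44 were lower and 3 higher, with a median of -0.44. CIT1, the mitochondrial citrate synthase, had -0.48, -0.82 and -0.86 in the null, against 0.62, 0.46 and 0.58 in untagged DOT4, and CIT2, its peroxisomal counterpart, differed by -1.52 ± 0.13. The strains did not overlap in CIT1, nor in 57.7% of all genes. CYT1 and SDH2, of the respiratory chain, differed by -1.06 and -1.02. Of 46 general stress genes, 33 were lower and 5 higher, with a median of -0.66; YGP1 and APE1 led the lower ones and HSP30 the higher ones. Under the second reading 12 of 20 trehalose and glycogen genes were lower and 1 higher, and 23 of 46 general stress genes were lower and 6 higher. The respiration genes were divided, with 11 of 55 lower and 7 higher, and CIT1 (-0.16), CYT1 (0.09) and SDH2 (-0.29) did not pass.

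**Figure D5:**
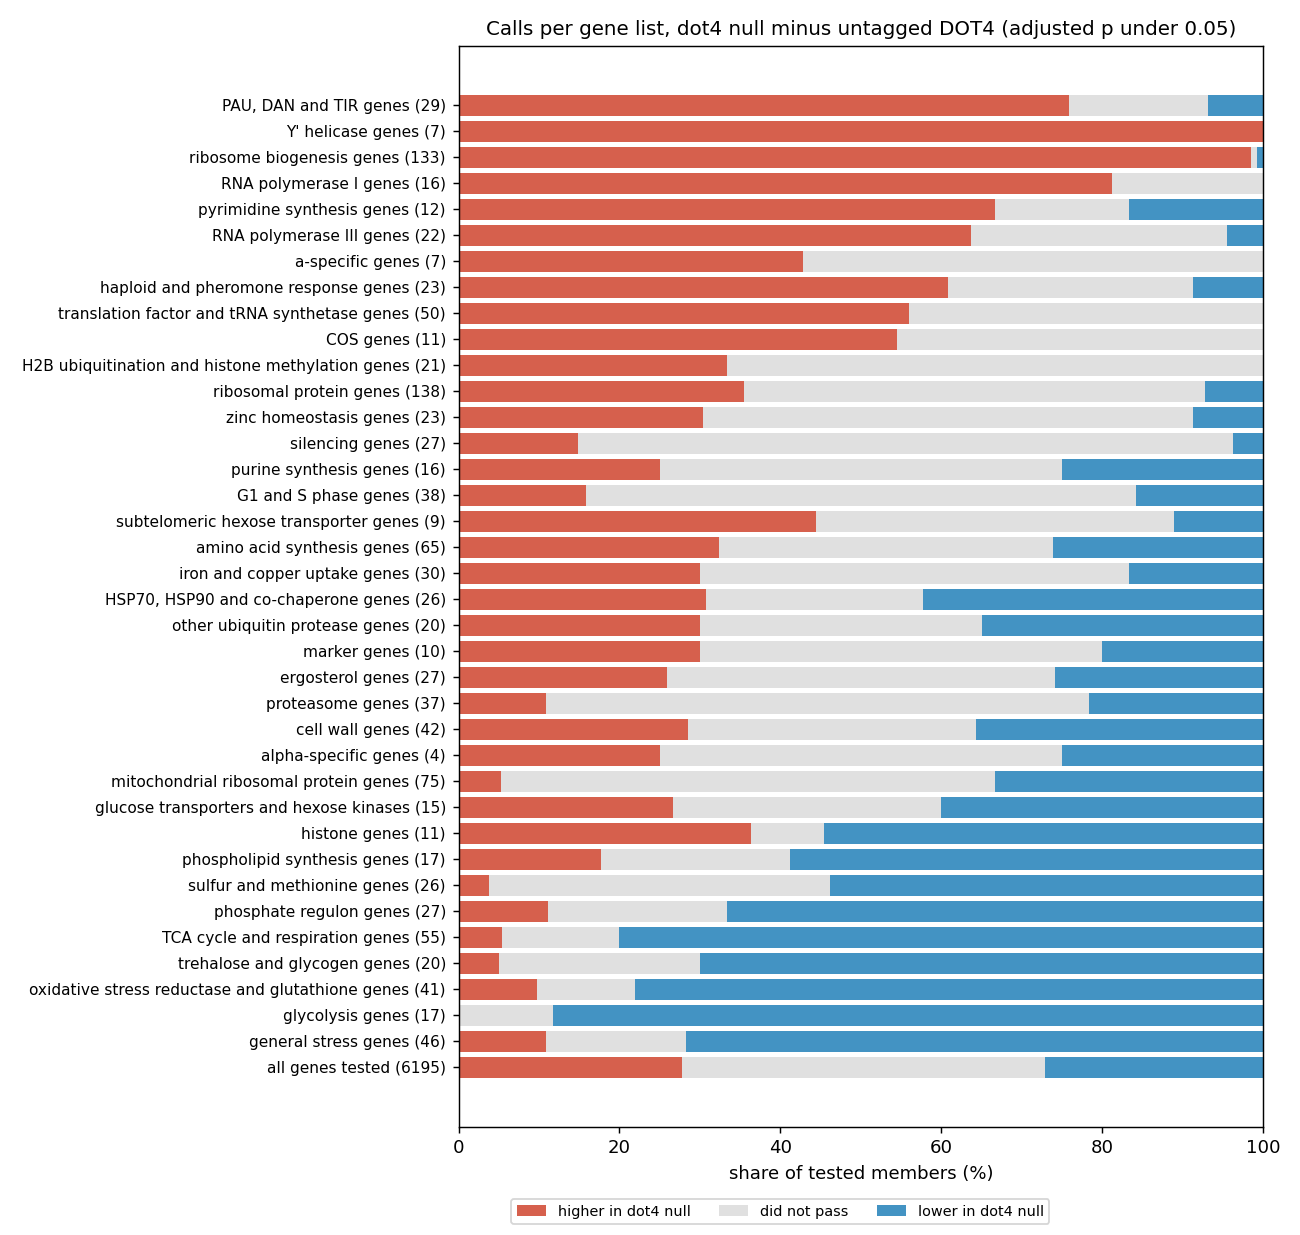
Share of tested members (horizontal axis, %) that were higher in dot4 null, did not pass or were lower in dot4 null, for 37 gene groups ordered by median difference, with the number tested in parentheses and all genes at the bottom. Y' and ribosome biogenesis genes are almost wholly higher, and glycolysis and oxidative stress genes are mostly lower, against 27.7% higher and 27.2% lower among all genes.

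Genes against oxidants and reactive aldehydes were mostly lower. Of 41, 32 were lower and 4 were higher, with a median of -0.58. GRE2, a methylglyoxal reductase, had -1.25, -1.65 and -1.63 in the dot4 null sets, against 0.38, 0.24 and 0.44 in the untagged DOT4 sets, and joined YNL134C, GTT2 and YML131W as the lowest of the group. For HSP70, HSP90 and their co-chaperones the directions were mixed, with 8 of 26 higher (30.8%) and 11 lower (42.3%). Of all genes 27.7% were higher and 27.2% lower. SSA3, an HSP70 gene induced by stress, was 1.09 ± 0.07 (SE) higher, while HSP60, the mitochondrial chaperonin, and KAR2, the HSP70 of the endoplasmic reticulum, fell by 0.81 and 0.74. The higher count was 5 without untagged DOT4 set 3. Of 37 proteasome genes, 4 were higher (10.8%) and 8 lower (21.6%), both below the shares of all genes. RPT1, a base ATPase, was highest at 0.99 ± 0.13. The lower count was 4 without dot4 null set 2, 5 without dot4 null set 3, 3 without untagged DOT4 set 1 and 1 without centring. In the second reading 24 of the 41 oxidant genes were lower and 3 higher, with a median of -0.39. The chaperone genes were then 12 higher and 4 lower, with SSA3 at 0.80, and the proteasome genes 6 higher and 5 lower, with RPT1 (-0.16) not passing.

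Phosphate genes were mostly lower, while the shares of higher zinc and of higher iron and copper genes lay near that of all genes. Of 27 phosphate regulon genes, 18 were lower and 3 higher, with a median of -0.37. PHO89, a sodium-coupled phosphate importer, had -2.67, -1.75 and -2.17 in the dot4 null sets, against -0.37, -0.54 and -1.01 in the untagged DOT4 sets, so both strains were below the tagged strain. PHO11, a secreted acid phosphatase near a chromosome end, had -1.02, -0.89 and -1.09 in the null, against 0.20, -0.09 and -0.14 in untagged DOT4. It was among the 19 lower genes at ranks 1 to 5, where 81 were higher. HXK1 (-2.28) and YML131W (-1.96), also at those ranks, were lower by more. PHO8, the vacuolar phosphatase, and SPL2, a regulator of phosphate uptake, differed by -1.21 and -1.07. Of 23 zinc genes, 7 were higher (30.4%) and 2 lower (8.7%). FET4, a low-affinity importer of iron and zinc, had 0.09, 0.12 and 0.19 in the null, against -0.74, -0.68 and -0.67 in untagged DOT4. Like HSP30, it was near the tagged strain in the null. Of 30 iron and copper genes, 9 were higher (30%) and 5 lower (16.7%), with ARN2, a siderophore transporter, at 0.72 ± 0.12 (SE). The 5 became 8 without untagged DOT4 set 1. In the zinc and the iron and copper groups the share of lower genes was below the 27.2% of all genes. With names read the second way, 16 of 27 phosphate genes were lower and 2 higher, with PHO89 at -2.84 and PHO11 at -1.01. The zinc genes were then 4 higher and 8 lower with FET4 turned to -0.56, the iron and copper genes 6 higher and 8 lower, and ARN2 (0.18) did not pass.

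Among the synthesis pathways, pyrimidine genes were mostly higher and sulfur genes mostly lower. Of 12 pyrimidine genes, 8 were higher and 2 lower, with a median of 0.39. URA1, dihydroorotate dehydrogenase, had 0.21, 0.29 and 0.21 in the dot4 null sets, against -0.69, -0.88 and -0.88 in the untagged DOT4 sets, and URA7, CTP synthase, differed by 1.05 ± 0.07 (SE). Of 26 sulfur and methionine genes, 14 were lower and 1 was higher, with a median of -0.32. MET6, methionine synthase, had -0.54, -0.83 and -0.92 in the null, against 0.09, 0.18 and 0.18 in untagged DOT4. In both pathways the strains' sets did not overlap in the gene given, nor in 57.7% of all genes. Of 16 purine genes, 4 were higher and 4 lower (25% each), with GUA1, for GMP synthesis, at 0.71 ± 0.06. Of 65 amino acid genes, 21 were higher (32%) and 17 lower (26%). The purine and amino acid shares lay near the 27.7% higher and 27.2% lower of all genes. BAT2, the cytosolic branched-chain aminotransferase, fell by 1.22 and ARG1, argininosuccinate synthetase, by 1.08, while CHA1, which degrades serine and threonine, was 0.93 ± 0.10 higher. On the second reading, the sulfur genes had 15 of 26 lower and none higher, but the pyrimidine genes had 2 of 12 higher and 5 lower, with URA1 turned to -0.58 and URA7 (0.01) not passing. The purine genes had 1 of 16 higher and 14 lower, with GUA1 turned to -0.19, and the amino acid genes 8 of 65 higher and 31 lower, with BAT2 at -1.02 and CHA1 at 1.07.

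Lipid, cell wall and cell cycle genes held single large differences. INO1, inositol-phosphate synthase, had 0.88, 0.87 and 0.92 in the dot4 null sets, against -0.28, -0.21 and -0.23 in the untagged DOT4 sets. OPI3, a phospholipid methyltransferase of phosphatidylcholine synthesis, had -1.04, -1.18 and -1.27 in the null, against 0.31, 0.15 and 0.30 in untagged DOT4, and CHO2, which acts in the same pathway, differed by -1.05 ± 0.12 (SE). Of 17 phospholipid genes, 3 were higher and 10 lower. Ergosterol genes were divided evenly, with 7 of 27 higher and 7 lower (25.9% each), near the 27.7% and 27.2% of all genes. ECM22, a sterol regulator, was 0.54 ± 0.06 higher. The higher ergosterol count was 4 without untagged DOT4 set 2 or 3. Of 42 cell wall genes, 12 were higher (28.6%) and 15 lower (35.7%), and CWP1 and SED1, both wall mannoproteins, fell by 1.27 and 1.07. Of 38 genes of G1 and S phase, 6 were higher and 6 lower (15.8% each), both below the shares of all genes. The higher count was 3 without untagged DOT4 set 1. CLN1, a G1 cyclin, had -0.80, -0.59 and -0.39 in the null, against 0.38, 0.36 and 0.49 in untagged DOT4, and its relative CLN2 differed by -0.67 ± 0.09. RNR4, a ribonucleotide reductase subunit, was 0.51 ± 0.06 higher. By the second reading, 22 of the G1 and S phase genes were higher and 2 lower, and CLN1 (-0.18), CLN2 (-0.11) and RNR4 (0.02) did not pass. The phospholipid genes had 2 higher and 7 lower, the ergosterol genes 3 higher and 9 lower, and the cell wall genes 8 higher and 12 lower. INO1 (0.65) was higher and OPI3 (-0.91) lower in that reading, CWP1 turned to 0.26, and SED1 (-0.23) and ECM22 (-0.01) did not pass.

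Across the genome the second reading had 2836 genes past the threshold, 1334 of them higher and 1502 lower in dot4 null. The second reading changes the sign of the untagged DOT4 ratios and leaves the null ratios as they are. Genes with untagged DOT4 ratios near 0 therefore keep their difference by construction, and those with large ones change. The Y' helicase, H4 and H3 genes, whose untagged DOT4 ratios lay near 0, were higher in both readings for that reason.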

How the data were processed

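Total RNA from the dot4 null and untagged DOT4 strains was compared with DOT4-6Myc RNA on 2-colour arrays. The deposited table holds 1 value per gene and array, taken as a log2 ratio from its range. Its base, any centring and the array type were not stated in the labels, nor were the authors' steps before deposit. The 12 arrays had 47 empty cells. After median centring, the dye orders of a set were turned to 1 direction and averaged, giving 3 set means a strain. Genes with fewer than 2 set means in any of the 4 strains (10 of 6205) were removed. Limma 3.58.1 in R 4.3.3 fitted the 12 set means of all 4 strains (8 residual degrees of freedom), with Benjamini-Hochberg adjustment. The script was tested on simulated data. Figures were drawn with matplotlib 3.10.9 in Python 3.11.15.

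Depth does not apply to arrays, and the number of arrays limits precision. The direction of the ratios was taken from UBP10 in the null arrays, against the order written in the labels. It was applied to the untagged DOT4 arrays as well. The correlations between null and untagged arrays of 1 dye order were -0.23 to 0.17 over all genes, and those between set means were -0.44 to -0.14. These correlations would change sign under the second reading. The dye component of the null and untagged sets correlated at 0.58 to 0.79. Within a strain, set means correlated at 0.75 to 0.95 for dot4 null and 0.66 to 0.78 for untagged DOT4. Set numbers were not treated as pairs, since deviations of same-numbered sets correlated at 0.14, 0.27 and -0.30. Genes were named from RefSeq's R64 table (5705 of 6205 identifiers matched). Genes were ordered along the 16 chromosomes by that table alone. The text names UBP10 and its neighbours, the 12 highest and 12 lowest genes that passed with sets not overlapping, up to 4 members with the largest absolute difference in each of 37 gene lists, and marker and mating type genes; exceptions are stated. The members and lists were chosen with earlier results of these data known. Promoter motifs were not analysed here.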

Additional observations from a re-analysis of the deposited data

How the results depend on the processing

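The number of genes past the threshold was 3401 and lay between 2874 and 3445 when the arrays were left uncentred (2964), scaled to a common spread (2881), restricted to the compared strain in Cy5 (3243) or in Cy3 (2899), fitted without the allele strains (2874), fitted as separate arrays with a random block (3445), taken with other rules on missing values (3404 and 3395) or given a robust variance model (3400). Leaving out 1 set gave 2962 to 3772. With the set number as a replicate block 3501 genes passed, 3349 of them shared with the fit without it, and among the named genes it ended the call of HTA2 alone (limma adjusted p = 0.0551). Same-numbered sets did not deviate together, and 1 of 3 null sets correlated best with its own number. The share of higher genes among those past the threshold was 69.57% without centring, where 902 genes were lower, against 1682 with it; uncentred arrays carry the median shift given above. Of 121 named genes, 114 to 121 kept their direction and call under each setting. The HTA2 difference was 0.001167 in Cy3 only. The URA3 difference, which never passed the threshold, was -0.215 after scaling and -0.2732 in Cy3 only, and -0.3229 to 0.3941 with 1 set left out. The SIR4 difference was -0.2677 to 0.004958 with 1 set left out. Scaling to a common spread moved the UBP10 difference to -3.018, and moved PHO89 to -0.74, RPS22B to -0.26, OTU1 to -0.34, CHA1 to 0.59, HHT2 to 0.24 and YRF1-7 to 0.64, all still past the threshold. PRM1 was 0.52 in Cy5 only. Small group counts moved by over 1.5 times as follows. After scaling, the higher counts were 3 of 11 COS genes (6 as reported), 1 of 9 subtelomeric transporters (4), 3 of 20 other ubiquitin proteases (6), 1 of 38 G1 and S phase genes (6), 4 of 30 iron and copper genes (9) and 8 of 16 purine genes (4), and the lower counts were 2 of 138 ribosomal proteins (10), 2 of 37 proteasome genes (8) and 10 of 38 G1 and S phase genes (6). Without centring, the lower counts were 9 of 65 amino acid genes (17), 1 of 30 iron and copper genes (5), 1 of 16 purine genes (4), 4 of 27 ergosterol genes (7) and 3 of 38 G1 and S phase genes (6), and the higher counts were 11 of 21 H2B ubiquitination and methylation genes (7), 8 of 46 general stress genes (5) and 10 of 38 G1 and S phase genes (6). Fitted without the allele strains, 1 COS gene and 3 H2B ubiquitination and methylation genes were higher, and 3 histone and 3 proteasome genes were lower. For these results the cause was not tested.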
